A study of Mus musculus with 32 samples.

Results

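Intestinal stem cells and their progenitors from Cpt1a-deficient mice on a control diet were compared by sequencing of polyA RNA, with 4 stem cell libraries set against 4 progenitor libraries, 8 of the 32 libraries of the series. The members were the 4 libraries of each population that carry this genotype and this diet in their column names, and the comparison ran over all expressed genes. The mice were C57BL6 and had floxed Cpt1a alleles (Cpt1afl/fl) together with Villin-CreER, a tamoxifen-inducible Cre driven in the intestinal epithelium, and Lgr5-GFP-IRES-CreER, a knock-in that marks Lgr5-expressing cells with GFP. Their diet is labelled High Fat Control. The other groups used here were Cpt1a-deficient mice of the same alleles on the diet labelled High Fat, and wild-type mice, which carried both Cre drivers and no floxed Cpt1a, on the control diet. All these mice therefore carried both Cre drivers. The Lgr5 knock-in is known to be active in only a part of the crypts and to disrupt the Lgr5 allele that carries it. Stem cells were sorted as Lgr5-eGFP high and progenitors as Lgr5-eGFP low. Both gates also took cells that were EpCAM-positive and low or negative for CD24 and left out cells with CD31, Ter119, CD45 or the dead-cell dye 7AAD. Per group 2 libraries are labelled female and 2 male. The labels give no age, time on the diet, tamoxifen schedule or animal, so p-values measure only the spread between libraries. That spread was estimated in a joint fit of all 32 libraries, which also held wild-type mice on the high-fat diet.

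Crypt base columnar stem cells sit between Paneth cells at the bottom of the intestinal crypt, depend on Wnt signals and divide to give progenitors. The progenitors divide on, and Notch signalling between neighbours steers them to absorptive enterocytes or to secretory goblet, Paneth, enteroendocrine and tuft cells. Cpt1a encodes the enzyme that couples long-chain fatty acids to carnitine on the outer mitochondrial membrane, the step that admits them to beta-oxidation, and Lgr5 and Olfm4 are textbook markers of the stem cells.

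The 8 libraries held 4674160 to 7337425 estimated counts, within the range of 3307711 to 7337425 over all 32. Genes of the mitochondrial genome took 1.42 to 2.32% of the counts of a stem cell library and 1.59 to 2.09% of those of a progenitor library. Libraries of each population are called a to d in column order, and stem cell library a is paired with progenitor library a, the column that follows it, and so on. Levels are given as TMM-scaled counts per 1000000 (CPM). Log2 fold changes, stem cells over progenitors, are given as estimate ± a standard error derived from the edgeR test. A gene is said to be higher or lower, or to rise or fall, where its Benjamini-Hochberg adjusted p was under 0.05. The numbers called without library c of the progenitors, the highest of its group in stem cell genes, were 2426 higher and 2662 lower, against 2266 and 2546 with all libraries, and without library a 1709 and 2099.

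Genes of the cells that the gates leave out were at low levels. Ptprc, which encodes CD45, had 0, 0, 0 and 0.177 CPM in stem cells, against 0, 0, 0 and 0 CPM in progenitors. Of 15 white blood cell markers 11 stayed under 1 CPM in all 8 libraries, as did 11 of 13 markers of stroma and endothelium and all 6 of red blood cells. Summed over the list, levels per length were 4.91 to 8.27 transcripts per 1000000 (TPM) in stem cells and 6.42 to 11.5 TPM in progenitors for the white blood cell list, and 0.940 to 1.27 TPM and 3.97 to 6.37 TPM, in the same order, for stroma and endothelium. Of the 3 white blood cell markers tested Itgae, an integrin of lymphocytes in the epithelium, was higher (1.07 ± 0.36). Itgam, of myeloid cells, was lower (-1.16 ± 0.21), as was Lyz2 (-2.63 ± 1.03), whose call was lost in 5 of the 8 fits without 1 library. Lyz2 also stands on the Paneth cell list and is nearly identical to Lyz1, so the split of reads between them is uncertain. Vim, a filament protein of stroma, was lower (-4.59 ± 0.71) and Pdgfrb (0.19 ± 0.47) did not pass. The part of these genes in the results below was not tested. Epcam, the surface protein of the gate, had 2369, 2162, 2219 and 2065 CPM in stem cells, against 2513, 2273, 2389.9 and 2541 CPM in progenitors. Of 8 epithelial and gate genes tested 4 were lower in stem cells, the keratins Krt8, Krt19 and Krt20 and Kit, and none higher.

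Cpt1a (ENSMUSG00000024900; GRCm38 chromosome 19, 3322334 to 3385733, plus strand) was low in both populations of these mice. It had 22.5, 23.7, 22.5 and 23.0 CPM in stem cells, against 23.0, 28.4, 19.0 and 30.6 CPM in progenitors. In wild-type mice on the same diet it had 119, 151, 156 and 189.7 CPM in stem cells, against 212, 169.6, 209.6 and 264 CPM in progenitors. Every Cpt1a-deficient library lay below every wild-type library. Within the deficient mice stem cells and progenitors overlapped, at -0.14 ± 0.16 (adjusted p = 0.55), and that value changes sign on the deposited TPM scale, where it was 0.13. Whether the remaining counts come from full transcripts or from transcripts without the floxed part cannot be read from gene totals. The other isoforms did not pass the filter on low counts: Cpt1b stayed at or under 1.03 CPM and Cpt1c at or under 0.531 CPM in the 8 libraries.

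The sort gene and the second marker separated the populations. Lgr5 (ENSMUSG00000020140; GRCm38 chromosome 10, 115450311 to 115587780, minus strand), the receptor for R-spondins, had 370.3, 387, 488 and 452 CPM in stem cells, against 11.9, 25.4, 85.7 and 37.4 CPM in progenitors. Olfm4 (ENSMUSG00000022026; chromosome 14, 79984081 to 80023139, plus strand), a secreted glycoprotein of the crypt base, had 11084, 9870.3, 12059.5 and 10647 CPM in stem cells, against 1483, 1892, 4481 and 2846 CPM in progenitors. Stem cells lay above progenitors in every library for both genes, and progenitor library c was the highest of its group for both. The log2 fold changes were 3.41 ± 0.40 for Lgr5 (adjusted p = 3.50e-07) and 2.03 ± 0.22 for Olfm4 (adjusted p = 4.45e-08). GFP from the Lgr5 locus set the gate, so the difference in Lgr5 describes the sort and is no finding.

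The populations differed at many of the expressed genes. Of 13088 genes tested 4812 passed, 36.8%, with 2266 higher in stem cells (17.3%) and 2546 lower (19.5%). The falls were the larger: 872 genes were lower with a log2 fold change under -1 and 605 were higher with one over 1, and past 4 there were 150 lower and 5 higher. The median was 0.64 over the called rises and -0.63 over the called falls. With each stem cell library paired with its progenitor library as a replicate block, 2717 genes were higher (20.8%) and 2916 lower (22.3%). On the deposited TPM scale, tested with limma, the split was 4195 higher and 1230 lower, 77.3% higher in place of 47.1%, and the median of all tested genes was 0.24 in place of 0.03. With the median of each library set to the same value it was 1633 higher and 2256 lower. Gene groups are therefore read against the median of all genes.

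**Figure D1:**
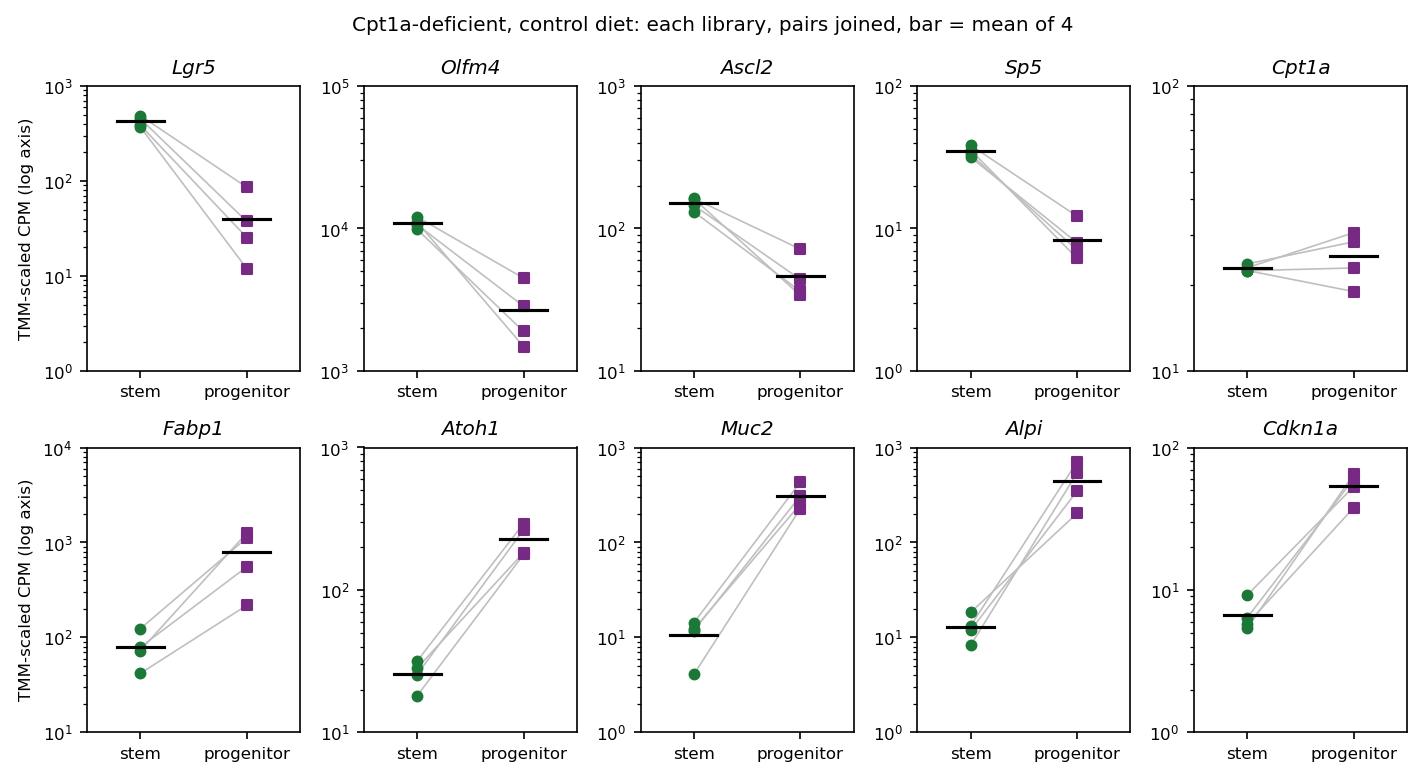
TMM-scaled CPM on a log axis for 10 genes in the 4 stem cell libraries (circles, left) and the 4 progenitor libraries (squares, right), with grey lines joining paired libraries and bars at the means. Lgr5, Olfm4, Ascl2 and Sp5 lie higher in all stem cell libraries, Fabp1, Atoh1, Muc2, Alpi and Cdkn1a lie lower in all of them, and Cpt1a overlaps.

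Stem cell markers and Wnt target genes were higher in the stem cells. Of 25 stem cell markers tested 24 were higher and none lower, with a median log2 fold change of 1.58; only Ephb2, an Eph receptor, did not pass, at 0.23 ± 0.22. The list holds the sort gene Lgr5, without which 23 of 24 were higher around a median of 1.53. The summed level of the whole list was 16535, 15745, 19417 and 17149 TPM in stem cells, against 2839, 3169, 6956 and 4506 TPM in progenitors. Progenitor library c held the most of these transcripts in its group and library a the least. Ascl2, the transcription factor that sets stem cell fate downstream of Wnt, had 162, 146, 162 and 131 CPM in stem cells, against 33.9, 43.9, 71.6 and 36.2 CPM in progenitors. The groups did not overlap (log2 fold change 1.70 ± 0.25). Tnfrsf19, a receptor of the tumour necrosis factor family, rose by 2.82 ± 0.28, Fstl1, a secreted follistatin-like protein, by 2.65 ± 0.25, Soat1, which esterifies cholesterol, by 1.75 ± 0.18 and Smoc2, a matrix protein, by 1.28 ± 0.12. Among 5 genes used as markers of reserve cells Mex3a (1.95 ± 0.49), an RNA-binding protein, Lrig1 (0.99 ± 0.15), a brake on EGF receptors, and Bmi1 (0.39 ± 0.15), a Polycomb protein, were higher, while Tert (0.57 ± 0.24), the telomerase, did not pass and Hopx (0.26 ± 0.11), a homeodomain protein, passed only with the replicate block (adjusted p = 0.0136).

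Wnt pathway targets and feedback genes followed the same direction. Without the sort gene Lgr5, which stands on this list too, 14 of 18 tested were higher and 1 lower, around a median of 1.45. With it 15 of 19 were higher, at 1.47. Several of them are also stem cell markers. Axin2, Rnf43 and Znrf3 are negative feedback regulators that Wnt signalling itself switches on. They rose by 1.65 ± 0.24, 1.66 ± 0.20 and 1.26 ± 0.46 on the log2 scale. The call of Znrf3 was lost in 3 of the 8 fits without 1 library (highest edgeR adjusted p = 0.192). Its level in stem cell library d was 19.3 CPM, with the nearest stem cell library at 8.55 CPM. Lef1 and Tcf7, the transcription factors that beta-catenin binds, rose by 2.97 ± 0.53 and 1.1 ± 0.18, Nkd1 and Apcdd1, both inhibitors of the pathway, by 2.10 ± 0.36 and 2.33 ± 0.46, and the receptors Fzd2 and Fzd7 by 1.43 ± 0.38 and 1.14 ± 0.18. The gene that fell was Prox1, a transcription factor also found in secretory cells, at -1.39 ± 0.46, with 1.16, 1.27, 2.19 and 1.06 CPM in stem cells, against 1.77, 6.0, 5.4 and 1.89 CPM in progenitors. Its libraries overlapped between the populations, and the call was lost without stem cell library d (edgeR, adjusted p = 0.054) or progenitor library b (0.0972) or c (0.0625).

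Sp5 is a transcription factor switched on by Wnt signalling in many tissues, and it had 33.1, 31.7, 38.4 and 35.6 CPM in stem cells, against 7.07, 7.94, 12.2 and 6.18 CPM in progenitors. The populations did not overlap, at 2.06 ± 0.24 (adjusted p = 6.97e-08). Its promoter window, 250 bases before to 50 after the start of transcription, is shown because it holds the letters that TCF/LEF factors bind, CTTTGAT, in capitals. The window lies at chr2:70474673-70474972 of GRCm38.p6 on the plus strand (RefSeq).
Sp5: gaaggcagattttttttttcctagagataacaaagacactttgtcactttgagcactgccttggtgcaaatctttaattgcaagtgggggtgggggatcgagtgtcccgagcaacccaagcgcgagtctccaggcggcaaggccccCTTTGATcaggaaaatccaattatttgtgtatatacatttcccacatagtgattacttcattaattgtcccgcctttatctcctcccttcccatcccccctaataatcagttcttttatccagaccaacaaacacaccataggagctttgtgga
The match begins at base -104 on the gene's own strand. Over both strands CTTTGAT stood in the first listed RefSeq window of 2.75% of the genes higher in stem cells, 2.56% of those lower and 2.57% of all tested genes that had a window. The 3 shares lay close together, and a match is a run of letters, not a bound site.

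Ligands and receptors that sort cells along the crypt were split. Among 10 Eph receptors and ephrins 6 were higher and 2 lower in stem cells, Efnb2 and Efnb1. Ephb3, a Wnt-induced receptor, rose by 1.65 ± 0.22 and Epha4 by 2.05 ± 0.30, while the ligand Efnb2, which marks differentiated cells, had 3.49, 3.64, 7.37 and 1.77 CPM in stem cells, against 17.7, 16.4, 16.6 and 12.9 CPM in progenitors. Efnb2 was lower without overlap, at -1.98 ± 0.28. Efnb1, another ligand, was at -0.30 ± 0.11, a call that was lost without stem cell library d or progenitor library d. In the EGF family 5 of 12 tested genes were higher and 2 lower. Btc, which encodes the ligand betacellulin, rose by 0.68 ± 0.14, and Errfi1, a feedback inhibitor of the receptor, by 0.85 ± 0.13. Egf itself, which Paneth cells make, was lower, with 0.969, 1.58, 0.797 and 1.06 CPM in stem cells, against 3.39, 6.35, 6.79 and 2.75 CPM in progenitors. In the BMP pathway, which opposes stem cell fate up the crypt, 2 of 13 tested genes were higher and 4 lower, around a median of 0.03 that turns to -0.09 on the centred TPM scale. Over all genes 17.3% were higher and 19.5% lower, at a median of 0.03. The BMP counts lie too near these shares to be a result about the list. The lower genes were Id2 (-0.58 ± 0.20) and Id3 (-0.97 ± 0.23), targets of BMP receptors, and Smad6 (-1.1 ± 0.29) and Bambi (-1.24 ± 0.24), inhibitors of the pathway.

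Genes of the Notch pathway were split. Of 10 tested 5 were higher and 2 lower, around a median of 0.27, and the other 3, among them the ligand Jag1 (-0.49 ± 0.22) and the target Nrarp (-0.11 ± 0.17), did not pass. Notch1 rose by 1.14 ± 0.24, Notch2 by 0.87 ± 0.31, the transcription factor Rbpj that carries the signal by 0.56 ± 0.15, the target Hes1 by 0.69 ± 0.15 and Dtx4, a ubiquitin ligase of the pathway, by 1.17 ± 0.17. The ligands Dll1 and Dll4, which secretory precursors present to their neighbours, were lower in stem cells. Dll1 had 37.6, 47.0, 50.4 and 52.1 CPM in stem cells, against 108, 163, 165 and 115 CPM in progenitors, and Dll4 had 13.8, 13.6, 9.56 and 8.85 CPM in stem cells, against 31.5, 54.3, 54.4 and 31.1 CPM in progenitors. All stem cell libraries lay below all progenitor libraries for both ligands, at -1.56 ± 0.14 and -1.90 ± 0.22. Atoh1, the transcription factor that Hes1 represses and that commits cells to secretory fate, had 28.3, 31.7, 25.5 and 18.1 CPM in stem cells, against 182, 292, 264 and 177 CPM in progenitors. It was lower in stem cells at -3.14 ± 0.22 (adjusted p = 3.17e-11), again with no overlap.

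Other regulators of secretory fate were lower with Atoh1. Of 19 secretory fate regulators 16 were lower, none higher, and the median was -3.00 against 0.03 over all genes. Spdef (-3.20 ± 0.32) and Creb3l1 (-2.67 ± 0.26) act in goblet cells, Gfi1 (-3.50 ± 0.41) in goblet and Paneth cells, Bhlha15 (-2.98 ± 0.30) in cells with a large secretory apparatus, and Neurog3 (-2.67 ± 0.34) and Pax4 (-4.36 ± 0.57) in endocrine precursors. Neurod1, an endocrine factor, had 0.194, 0.158, 0 and 0.177 CPM in stem cells, against 14.1, 25.4, 11.5 and 10.6 CPM in progenitors. The forkhead factors Foxa1 (0.01 ± 0.42), Foxa2 (-0.04 ± 0.18) and Foxa3 (-0.27 ± 0.19) did not pass.

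Products of mature secretory cells showed the largest differences. All 20 goblet cell genes tested were lower, with a median of -4.30, and their summed level was 1805, 2017, 1515 and 1244 TPM in stem cells, against 23753, 38557, 28619 and 20682 TPM in progenitors. In bulk samples fewer cells of a type and less RNA per cell cannot be told apart, here and for every cell type below. Muc2, the gel-forming mucin of the mucus layer, had 12.2, 14.2, 11.7 and 4.07 CPM in stem cells, against 253, 431, 309 and 227 CPM in progenitors. Its log2 fold change was -4.85 ± 0.39 (adjusted p = 5.82e-10) and the groups did not overlap. Zg16, a lectin of the mucus, had 4.07, 7.76, 31.3 and 4.25 CPM in stem cells, against 1465, 2710.0, 998 and 1132 CPM in progenitors, and library c was the highest of the stem cells. Clca1, a mucus-processing protease, was lower at -6.23 ± 0.57, Fcgbp, a mucus protein, at -5.03 ± 0.43, Tff3, the trefoil factor of goblet cells, at -4.32 ± 0.29 and Guca2a, the hormone guanylin, at -4.44 ± 0.28.

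The Muc2 promoter window lies at chr7:141690090-141690389 of GRCm38.p6, plus strand (RefSeq). It is shown because it holds CAGCTG, letters of the E-box that factors of the Atoh1 class bind, in capitals at base -112.
Muc2: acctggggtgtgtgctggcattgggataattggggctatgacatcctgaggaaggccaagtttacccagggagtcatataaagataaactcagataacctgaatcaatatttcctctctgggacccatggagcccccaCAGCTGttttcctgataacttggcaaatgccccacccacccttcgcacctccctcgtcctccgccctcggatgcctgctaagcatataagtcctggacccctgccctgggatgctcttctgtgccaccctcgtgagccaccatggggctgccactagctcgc
CAGCTG, which reads the same on both strands, stood in 15.1% of the windows of genes higher in stem cells, 15.3% of those lower and 14.2% of those tested. These shares lay close together too.

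Paneth, endocrine and tuft cell genes were mostly lower as well. Of 18 Paneth cell genes 15 were lower and none higher (median -2.89). Their summed level was 1406, 1739, 5753 and 2617 TPM in stem cells, against 15550.3, 41209.7, 43472 and 28083 TPM in progenitors. Stem cell libraries c and d held more than a and b, and progenitor library a held the least of its group. Mmp7, the protease that activates defensins, had 40.7, 59.7, 34.9 and 18.6 CPM in stem cells, against 179, 416, 401 and 163 CPM in progenitors. Defa24, a defensin, had 83.3, 98.8, 523 and 218 CPM in stem cells, against 1258, 4387, 3993 and 3011 CPM in progenitors, and Lyz1, the lysozyme of Paneth cells, was lower at -3.50 ± 0.77; defensin genes, and Lyz1 with its neighbour copy Lyz2, are nearly identical, so the split of reads among them is uncertain. Cd24a, whose product CD24 is known to be strong on Paneth cells and was kept low by the gate, overlapped at -0.003 ± 0.15, and Kit, which encodes CD117, had 28.7, 35.1, 37.2 and 36.1 CPM in stem cells, against 71.2, 111, 147 and 77.8 CPM in progenitors.

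Among 27 enteroendocrine genes 26 were lower, and Ddc, which makes amine hormones, passed only with the replicate block (-0.46 ± 0.20, adjusted p = 9.80e-05). The median was -5.39, or -5.03 with the 4 genes that had no stem cell count set at the bound that 3 counts over the group allow. Gip, the incretin of the upper intestine, had no count in the stem cell libraries and 91.5, 122, 66.2 and 120.4 CPM in progenitors, at least 701-fold lower in stem cells. Cck, the gallbladder hormone, had 0, 0.158, 0.199 and 0.354 CPM in stem cells, against 30.8, 78.3, 24.6 and 28.8 CPM in progenitors. Chgb, a granule protein, had 15.9, 11.4, 5.18 and 1.59 CPM in stem cells, against 362, 847, 360.3 and 367 CPM in progenitors, and stem cell library a was highest in its group. Gcg, which encodes glucagon-like peptides, had 20.9, 0.158, 0 and 0 CPM in stem cells, against 234, 374, 183 and 133 CPM in progenitors; its counts in stem cells came almost wholly from library a. Of 10 tuft cell genes tested 8 were lower, among them Dclk1, a kinase used as the tuft marker (-3.00 ± 0.80), Trpm5, a taste channel (-1.72 ± 0.46), and Avil, an actin-bundling protein (-2.57 ± 0.32). Siglecf, Il25, Gnat3, Gfi1b and Alox5ap, also on that list, did not pass the filter.

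Enterocyte genes were mostly lower. Of 25 tested 18 were lower and 1 higher, with a median of -1.40. Sis, the brush border sucrase-isomaltase, had 6.78, 8.55, 13.3 and 15.1 CPM in stem cells, against 489, 305, 136 and 319 CPM in progenitors. Alpi, intestinal alkaline phosphatase, had 13.2, 8.23, 18.3 and 11.9 CPM in stem cells, against 705, 538, 203 and 348 CPM in progenitors, and Rbp2, the retinol-binding protein of enterocytes, had 3.49, 2.06, 5.58 and 3.01 CPM in stem cells, against 144, 92.1, 27.0 and 62.2 CPM in progenitors. Stem cells lay below progenitors in all libraries for these genes, and progenitor library c was the lowest of its group in each. Krt20, a keratin of differentiated cells, was lower at -4.27 ± 0.39, Slc2a2 and Slc2a5, sugar transporters, at -3.47 ± 0.60 and -1.44 ± 0.32, and Apoa1 and Apoa4, apolipoproteins, at -2.98 ± 0.82 and -2.40 ± 0.66. The gene that rose, Dpp4, a peptidase, was at 0.20 ± 0.07. Mgam (-0.12 ± 0.18), a disaccharidase, Slc5a1 (-0.15 ± 0.20), the glucose transporter, and Anpep (-0.35 ± 0.30), a peptidase, did not pass.

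Microvillus genes changed less, with 8 of 13 lower and 2 higher: Cdhr5 (-1.17 ± 0.13) and Myo1a (-1.11 ± 0.14) fell, and Myo7b (0.68 ± 0.15) and Eps8 (0.55 ± 0.14) rose. Among 19 transcription factors of intestinal identity 8 were lower and 3 higher, with a median of -0.23 that turns to 0.04 on the uncentred TPM scale. Hnf4g, which drives enterocyte genes, had 74.4, 95.2, 64.5 and 70.1 CPM in stem cells, against 293, 199, 133 and 218 CPM in progenitors, while its relative Hnf4a was slightly higher at 0.28 ± 0.09. Klf4 (-2.47 ± 0.31) and Maf (-2.14 ± 0.56), factors of differentiated epithelium, were lower. Sox9, a factor of the crypt base, had 362, 347, 351 and 375 CPM in stem cells, against 129, 154, 216 and 139 CPM in progenitors and was higher without overlap. Cdx1 (-0.004 ± 0.14), Cdx2 (0.30 ± 0.18) and Gata6 (-0.10 ± 0.09) did not pass.

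The Rbp2 and Alpi windows are shown because they hold CAAAGTCC, letters of the element that HNF4 factors bind, in capitals. Rbp2 lies at chr9:98490287-98490586 on the plus strand, with the match on the opposite strand (so it reads GGACTTTG here) from base -133. Alpi lies at chr1:87101557-87101856 on the minus strand, with the match from base -19. Both are from RefSeq, GRCm38.p6.
Rbp2: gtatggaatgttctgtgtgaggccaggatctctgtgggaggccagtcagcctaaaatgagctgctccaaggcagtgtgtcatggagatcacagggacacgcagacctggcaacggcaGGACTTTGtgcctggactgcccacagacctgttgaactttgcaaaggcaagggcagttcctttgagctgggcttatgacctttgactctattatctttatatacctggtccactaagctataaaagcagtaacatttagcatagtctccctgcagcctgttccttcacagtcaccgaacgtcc
Alpi: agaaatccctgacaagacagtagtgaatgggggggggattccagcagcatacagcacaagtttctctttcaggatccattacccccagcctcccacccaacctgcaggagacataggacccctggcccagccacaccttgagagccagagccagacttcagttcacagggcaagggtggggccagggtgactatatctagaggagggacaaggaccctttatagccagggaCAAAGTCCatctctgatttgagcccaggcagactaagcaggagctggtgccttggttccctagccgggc
Over both strands CAAAGTCC stood in 2.51% of the windows of genes lower in stem cells, 49 of 1956, in 1.09% of those higher, 19 of 1745, and in 1.48% of those tested, 142 of 9623. These shares are counts of letters with no test.

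**Figure D2:**
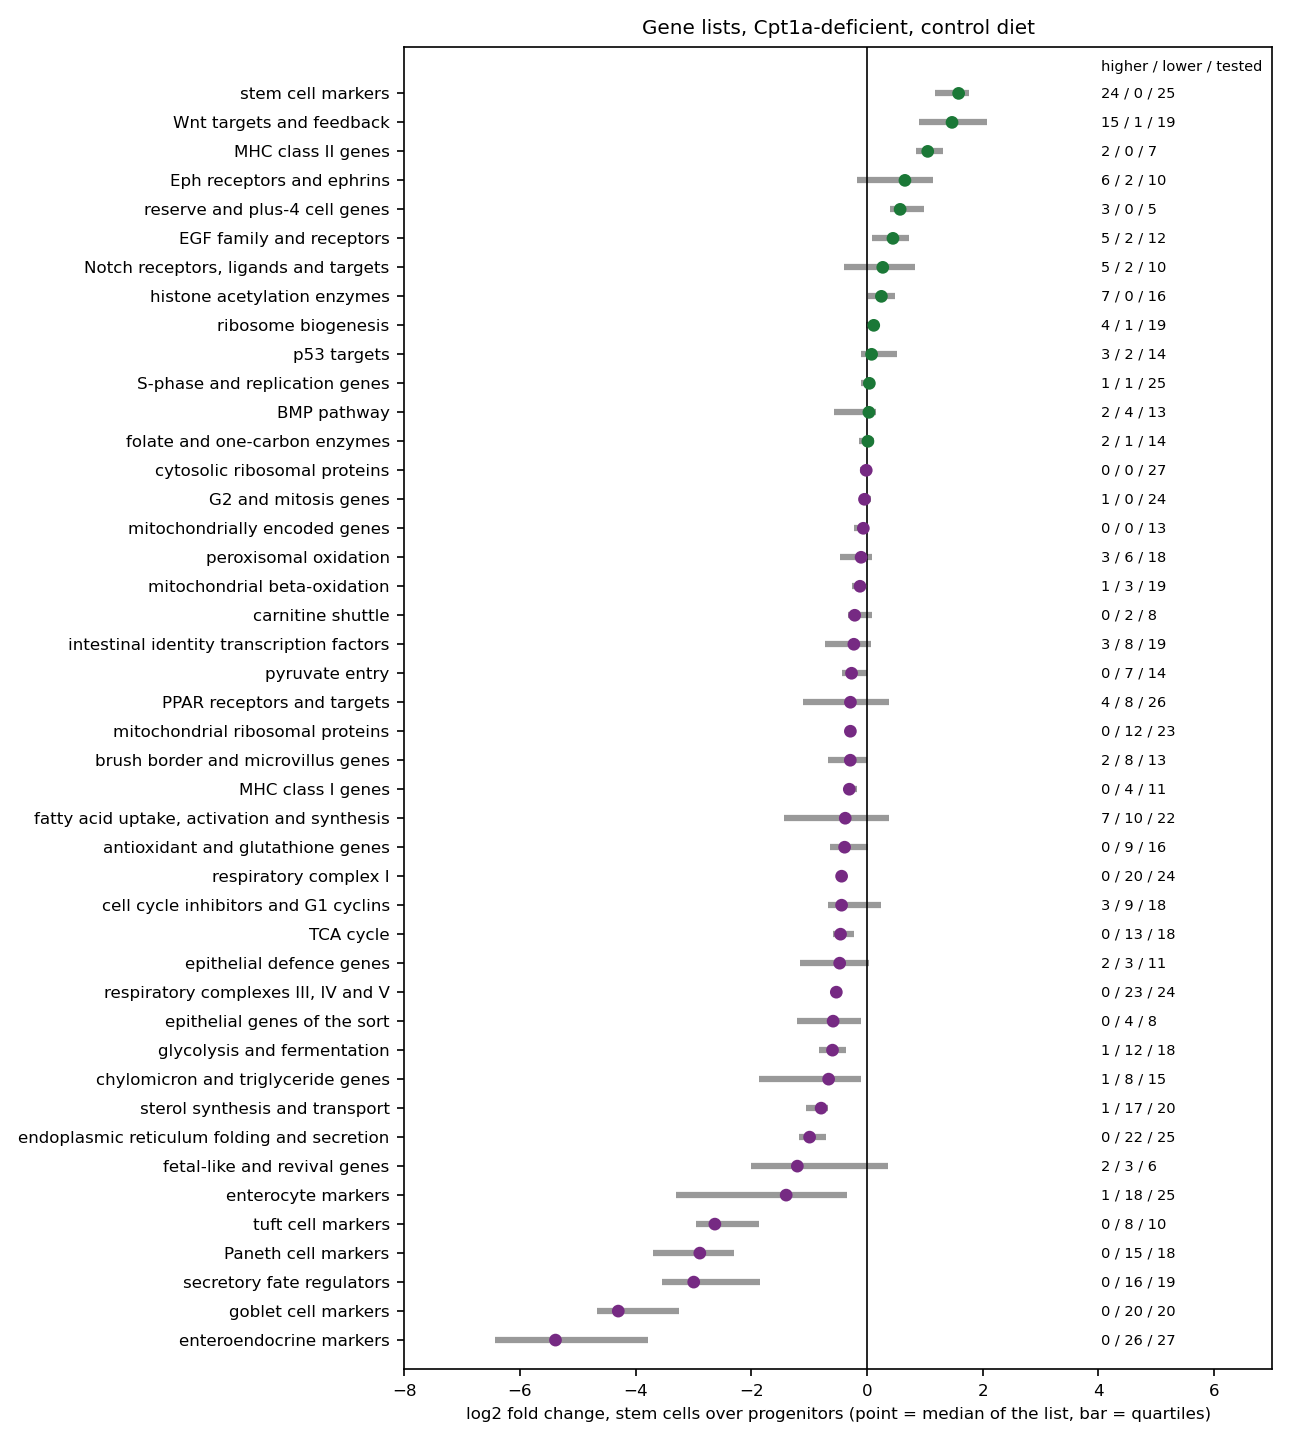
Median log2 fold change, stem cells over progenitors, of each gene list with at least 5 tested members, ketone body genes left out (points) and its quartiles (bars), with the numbers higher, lower and tested at the right. Stem cell and Wnt genes lie at the top, proliferation and ribosomal genes near 0, and secretory and enterocyte genes at the bottom.

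Few proliferation genes passed. Of 25 S-phase and replication genes 1 was higher and 1 lower (3 higher and 1 lower with the replicate block), with a median of 0.04. Of 24 G2 and mitosis genes 1 was higher and none lower, around a median of -0.04 that turns to 0.22 on the uncentred TPM scale, and without progenitor library c 4 of them were lower. Mki67, the standard marker of dividing cells, was at -0.10 ± 0.14, and Top2a, a topoisomerase of dividing cells, at 0.19 ± 0.13, neither passing, while Mcm2, a helicase subunit, at 0.33 ± 0.14, passed only with the replicate block (adjusted p = 0.00605). The gene that fell was Rrm2, a subunit of ribonucleotide reductase, with 160.1, 161, 149 and 179.9 CPM in stem cells, against 372, 352, 192 and 350.0 CPM in progenitors. Pola1 (0.34 ± 0.13), a DNA polymerase, and Cenpf (0.54 ± 0.17), a kinetochore protein, were higher.

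Several inhibitors of the cell cycle were lower in stem cells. Cdkn2b, the inhibitor p15, had 0.194, 0.633, 0.996 and 0.708 CPM in stem cells, against 26.1, 23.1, 17.6 and 17.3 CPM in progenitors. Cdkn1a, the inhibitor p21, had 6.39, 5.38, 5.78 and 9.21 CPM in stem cells, against 60.4, 64.9, 37.8 and 53.2 CPM in progenitors, and Cdkn1c, p57, had 2.13, 0.950, 0.797 and 0.885 CPM in stem cells, against 6.63, 9.35, 8.36 and 5.49 CPM in progenitors. Each gene's groups were apart, at -5.01 ± 0.41, -3.01 ± 0.29 and -2.63 ± 0.30. Of the 18 genes of this list, which also holds kinases and cyclins of the first gap phase, 9 were lower and 3 higher, with a median of -0.44 (0.01 on the uncentred TPM scale); the higher ones were Cdk6, a kinase also used as a stem cell marker (1.27 ± 0.18), Cdk4 (0.28 ± 0.09) and Rbl2 (0.43 ± 0.14). Among 14 p53 targets 3 were higher and 2 lower, close to the 17.3% and 19.5% of all genes, so the count is no result about the list. Bbc3, the death gene Puma, had 5.43, 5.07, 6.37 and 5.31 CPM in stem cells, against 1.03, 0.705, 2.61 and 1.89 CPM in progenitors and rose by 1.82 ± 0.34, Trp53inp1, a stress-induced p53 cofactor, by 1.5 ± 0.36 and Sesn2 by 0.76 ± 0.21. Cdkn1a and Fas, a death receptor (-1.59 ± 0.41), fell, and the other 9 did not pass.

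Genes around the deleted enzyme are given against the shares of all genes, 17.3% higher and 19.5% lower (20.8% and 22.3% with the replicate block). In the carnitine shuttle 2 of 8 tested genes were lower and none higher, Cpt2 (-0.47 ± 0.16), the inner-membrane partner of Cpt1a, and Mlycd (-0.37 ± 0.11), which breaks down its inhibitor malonyl-CoA. Cpt2 had 247, 218, 177 and 228 CPM in stem cells, against 347, 290.3, 259 and 313 CPM in progenitors. Without progenitor library a neither Cpt2 nor Mlycd passed, and without stem cell library c Cpt2 did not. In mitochondrial beta-oxidation 3 of 19 were lower and 1 higher, with the replicate block 7 were lower and 1 higher, and without progenitor library c 6 were lower. Acad11 (-0.63 ± 0.17), Etfb (-0.39 ± 0.13) and Decr1 (-0.35 ± 0.11) fell and Acad10 (0.45 ± 0.15) rose. The core enzymes Acadm (-0.13 ± 0.10), Acadl (-0.18 ± 0.16) and Hadha (-0.03 ± 0.09) did not pass, and Acadvl (-0.19 ± 0.12) passed only with the block (adjusted p = 0.0287). The medians of the shuttle and of beta-oxidation, -0.21 and -0.12, turn to 0.02 and 0.16 on the uncentred TPM scale. Of 18 peroxisomal genes 6 were lower and 3 higher, around -0.10 (0.10 on the uncentred TPM scale): Acot8 (-0.81 ± 0.14) and Abcd3 (-0.57 ± 0.11) fell, and Cat, the catalase, rose by 0.55 ± 0.12.

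Among genes of ketone body use and transport, the enzymes Bdh1 (-0.45 ± 0.08) and Acat1 (-0.47 ± 0.10) and the carriers Slc16a1 (-0.40 ± 0.08) and Slc16a6 (-1.99 ± 0.25) were lower in stem cells. Oxct1, which starts ketone use, was at -0.13 ± 0.11 and did not pass. The ketone body beta-hydroxybutyrate is known to inhibit histone deacetylases; of 16 histone acetylation enzymes 7 were higher and none lower, among them the deacetylases Hdac5 (1.05 ± 0.20), Hdac7 (0.98 ± 0.39) and Hdac11 (0.91 ± 0.17), while Hdac1 (-0.03 ± 0.06) did not pass. Without progenitor library a 3 of them were higher, and without stem cell library b or c or progenitor library d 4 were.

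PPAR receptors and targets had no common direction. Of 26 tested 4 were higher and 8 lower, against 17.3% higher and 19.5% lower over all genes. With the replicate block 8 were higher and 10 lower, against 20.8% and 22.3% of all genes. Among the 3 receptors Pparg fell (-0.82 ± 0.24), Ppard (-0.33 ± 0.33) did not pass and Ppara (-0.43 ± 0.25) passed only with the block (adjusted p = 0.0164). Slc27a2 (1.0 ± 0.13), which activates very long chain fatty acids, and Acsl1 (0.61 ± 0.14), an acyl-CoA synthetase, were among those that rose. Fabp1, the liver-type fatty acid binding protein, had 72.9, 124, 41.8 and 79.0 CPM in stem cells, against 1258, 1119.6, 218 and 554 CPM in progenitors. It was lower at -3.31 ± 0.50, as were Fabp2 (-1.76 ± 0.24), the fatty acid receptor Cd36 (-2.25 ± 0.68) and Me1, the malic enzyme (-1.88 ± 0.36). Those that fell include genes of absorptive cells, and Fabp1 and Fabp2 also stand on the enterocyte list.

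Angptl4, an inhibitor of lipoprotein lipase, Acot1, an acyl-CoA thioesterase, and Pdk4, a kinase that shuts pyruvate dehydrogenase, are PPAR targets whose call turned on the pairing. Angptl4 had 173, 172, 135 and 201 CPM in stem cells, against 127, 124, 96.9 and 135 CPM in progenitors. Acot1 had 282, 251, 181 and 255 CPM in stem cells, against 167, 137, 138 and 127 CPM in progenitors, and Pdk4 had 80.2, 130.5, 72.3 and 111 CPM in stem cells, against 51.3, 76.2, 42.9 and 66.6 CPM in progenitors. The stem cell library exceeded its paired progenitor library in all 4 pairs for each gene. Without the block the adjusted p-values were 0.482, 0.0565 and 0.295, at log2 fold changes of 0.50 ± 0.51, 0.77 ± 0.31 and 0.74 ± 0.53, and with it 7.69e-05, 7.66e-07 and 1.41e-07.

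Genes of fat absorption and export were mostly lower, like the enterocyte genes. Mogat2, which rebuilds triglycerides from absorbed fat, had 11.2, 10.6, 10.4 and 11.2 CPM in stem cells, against 111, 82.2, 41.1 and 61.5 CPM in progenitors. Mttp, which loads lipid on apolipoprotein B, was lower at -1.56 ± 0.21, and Dgat1 and Dgat2, the last enzymes of triglyceride synthesis, at -0.66 ± 0.12 and -0.98 ± 0.29; in all 8 of 15 chylomicron and triglyceride genes were lower and 1 higher, or 8 and 3 with the block. The higher one was Pnpla2, the lipase that releases fatty acids from stored fat (0.48 ± 0.09). Among 22 genes of fatty acid uptake, activation and synthesis 10 were lower and 7 higher. Slc27a1, a fatty acid transporter, had 141, 136, 138 and 153 CPM in stem cells, against 37.9, 56.8, 69.9 and 54.4 CPM in progenitors and was higher, while Slc27a4, its counterpart in absorptive cells, was lower (-1.19 ± 0.14). Elovl6 (-1.58 ± 0.19), an elongase, was lower and Fads1 (0.28 ± 0.10) and Fads2 (0.49 ± 0.10), the desaturases, were higher.

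Sterol genes were lower almost throughout. Of 20 tested 17 were lower and 1 higher, with a median of -0.79 (-0.78 on the centred TPM scale). Hmgcs1, an early enzyme of the pathway, had 82.2, 106, 88.6 and 94.2 CPM in stem cells, against 171, 199.8, 191 and 169.8 CPM in progenitors. Fdps (-1.31 ± 0.29), Mvk (-1.25 ± 0.29), Cyp51 (-1.09 ± 0.25) and Sqle (-0.96 ± 0.28), enzymes of cholesterol synthesis, were lower, and so was Npc1l1, the cholesterol importer of enterocytes, with 15.1, 21.2, 17.1 and 19.7 CPM in stem cells, against 105, 84.8, 62.5 and 91.0 CPM in progenitors. Abca1, the cholesterol exporter, was the gene that rose, at 1.34 ± 0.46, with libraries that overlapped.

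Many genes of glycolysis and of mitochondrial energy pathways were lower in stem cells by smaller steps. Of 18 glycolysis and fermentation genes 12 were lower and 1 higher (12 and 2 with the block). Ldha, which makes lactate, had 1229, 1314, 903 and 855 CPM in stem cells, against 3349.6, 2872, 1895 and 2727 CPM in progenitors. Pfkp, a phosphofructokinase, had 37.6, 36.7, 42.6 and 37.9 CPM in stem cells, against 313, 229.6, 145 and 213 CPM in progenitors, and Pkm (-0.86 ± 0.15) and Hk1 (-1.03 ± 0.31) were lower too. Hk2, the inducible hexokinase, was higher in every stem cell library, with 53.9, 65.4, 56.6 and 59.5 CPM in stem cells, against 28.4, 32.8, 27.7 and 30.1 CPM in progenitors. Ldha and Gapdh (-0.87 ± 0.15) have processed copies, so their counts are uncertain. Pyruvate carriers Mpc1 (-0.50 ± 0.12) and Mpc2 (-0.72 ± 0.17) and the dehydrogenase subunits Pdhb (-0.48 ± 0.09) and Dlat (-0.39 ± 0.09) were lower, 7 of 14 pyruvate genes in all and none higher (8 and 1 with the block). Their median was -0.27, which turns to 0.03 on the uncentred TPM scale.

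In the TCA cycle 13 of 18 genes were lower and none higher, with a median of -0.46. Cs, citrate synthase, had 366, 371, 299 and 314 CPM in stem cells, against 675, 583, 447 and 579.5 CPM in progenitors, and Mdh2, mitochondrial malate dehydrogenase, was lower at -0.96 ± 0.14. Nuclear genes of respiratory complex I were lower in 20 of 24 and of complexes III, IV and V in 23 of 24, at medians of -0.44 and -0.53. On the uncentred TPM scale 4 and 12 of them were lower, at medians of -0.17 and -0.26, and so were 8 of the TCA cycle. With library medians set equal it was 19, 21 and 12. Uqcrfs1, the iron-sulphur protein of complex III, had 351, 299, 258 and 295 CPM in stem cells, against 635, 528, 417 and 518 CPM in progenitors, and Ndufb10 (-0.69 ± 0.15), Cyc1 (-0.68 ± 0.13) and Cox5a (-0.83 ± 0.17) were lower. Their range was narrow: the middle part of the complex I genes, between the quartiles, spanned -0.51 to -0.37.

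The 13 protein genes of the mitochondrial genome had no call in either direction, at a median of -0.06 that turns to 0.19 on the uncentred TPM scale. At an unadjusted p under 0.05 there were 0 in edgeR and DESeq2 called 0 higher and 0 lower. mt-Nd1, a complex I subunit, had 2615, 2291, 2358 and 1606 CPM in stem cells, against 2747, 2371, 2384 and 2862 CPM in progenitors, and mt-Co1, of complex IV, had 4298, 3554, 3909 and 2572 CPM in stem cells, against 3542, 2895, 3560.3 and 3797 CPM in progenitors. Stem cell library d was the lowest of its group for both. The median of the mitochondrially encoded genes varied between library pairs with an SD of 0.38. That SD was 0.038 for complex I and 0.097 for complexes III, IV and V. Whether the mitochondrially encoded genes differ from these nuclear genes was not tested. Of 23 mitochondrial ribosomal proteins 12 were lower and none higher, 18 and none with the block. Without progenitor library a 6 were lower, without stem cell library c 7, and on the uncentred TPM scale 1 was lower and 1 higher (9 and none on the centred scale).

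None of 27 cytosolic ribosomal protein genes passed in edgeR, 1 at an unadjusted p under 0.05, and 0 higher and 1 lower by DESeq2; with the block 2 were lower, Rpl27 among them. The median was -0.01, and 0.24 on the uncentred TPM scale. Many ribosomal protein genes have processed copies that can share reads. In ribosome biogenesis 4 of 19 genes were higher and 1 lower, against 17.3% higher and 19.5% lower over all genes. The number of rises lies too near that share to be a result about the list. Polr1a (0.56 ± 0.15) and Polr1b (0.35 ± 0.10), subunits of RNA polymerase I, rose. The nucleolar proteins Nop56 (0.30 ± 0.09) and Dkc1 (0.22 ± 0.07) rose too, and Bop1 (-0.44 ± 0.13) fell.

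The secretory machinery was lower together with the secretory cell genes. Of 25 genes of endoplasmic reticulum folding and secretion 22 were lower and none higher, with a median of -0.99. Agr2, a disulphide isomerase needed for mucin, had 179.6, 198, 109.5 and 84.8 CPM in stem cells, against 2158, 3867, 2154 and 1659 CPM in progenitors. Ern2, the stress sensor of goblet cells, was lower at -3.28 ± 0.24, Sec24d, a vesicle coat protein, at -3.18 ± 0.23, Hspa5, the chaperone BiP, at -0.99 ± 0.17 and Sec61a1, the channel subunit, at -1.09 ± 0.12. The summed level of this list was 6619, 6612, 5849 and 5724 TPM in stem cells, against 13079, 17043, 12851 and 10353 TPM in progenitors, and the goblet cell list given above had the same order of populations in each library. Agr2 and Ern2 stand on the goblet cell list too, and Xbp1 on that of secretory fate regulators, so these lists are not independent.

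How many MHC class II genes passed depended on the pairing. All 7 tested lay above 0, 2 passed without the block and all 7 with it, and without 1 library 1 to 5 passed (5 without progenitor library b). The median was 1.05. Ciita, the master regulator of the class, had 13.4, 19.8, 11.2 and 12.9 CPM in stem cells, against 3.09, 3.88, 4.88 and 3.61 CPM in progenitors and did not overlap. Cd74, the invariant chain, had 1205, 1937, 764 and 979.9 CPM in stem cells, against 582, 974, 396 and 457 CPM in progenitors. H2-Ab1, a chain of the class II molecule, had 376, 737, 218 and 277 CPM in stem cells, against 169.6, 363, 125 and 120.0 CPM in progenitors. Library b was the highest and libraries c and d mostly the lowest in both populations, and within each pair the stem cell library was above its progenitor library for both Cd74 and H2-Ab1. The adjusted p was 0.0503 for Cd74 and 0.0801 for H2-Ab1 without the block and 5.30e-09 and 5.17e-09 with it. Ptprc, the general marker of white blood cells, was at or near 0, as given above, and Itgae was higher in stem cells. MHC class I genes were lower in 4 of 11 (7 with the block), among them H2-K1 (-0.37 ± 0.10) and H2-D1 (-0.39 ± 0.10), close copies whose split of reads is uncertain, and the immunoproteasome subunits Psmb9 (-0.67 ± 0.22) and Psmb10 (-0.58 ± 0.14).

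Defence genes were few and split, 3 of 11 lower and 2 higher, against 19.5% and 17.3% of all genes. These counts lie near the shares of all genes and are no result about the list. With the block 8 were lower and 2 higher, against 22.3% and 20.8% of all genes. Reg3a (-2.62 ± 0.51), an antimicrobial lectin, Il18 (-2.62 ± 0.44), a cytokine of epithelial cells, and Duoxa2 (-1.12 ± 0.38), a maturation factor for an oxidase, fell. Cxcl16, a chemokine, had 3.10, 8.55, 13.5 and 7.61 CPM in stem cells, against 2.21, 1.76, 2.79 and 1.89 CPM in progenitors, and Nos2, an inducible nitric oxide synthase, had 2.71, 5.54, 8.56 and 3.19 CPM in stem cells, against 0.295, 0.882, 5.05 and 0.343 CPM in progenitors. The libraries of Nos2 overlapped between the populations, and its call was lost in 5 of the 8 fits without 1 library. Of 16 antioxidant genes 9 fell and none rose; the falls included Nqo1 (-2.44 ± 0.30), a quinone reductase, Gpx1 (-1.1 ± 0.17), a glutathione peroxidase, and Srxn1 (-1.04 ± 0.15), a sulfiredoxin.

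Few folate and one-carbon enzymes passed: of 14 tested Phgdh (0.50 ± 0.19) and Shmt1 (0.44 ± 0.09) rose and Mthfd2 (-0.75 ± 0.21) fell. Of 6 tested genes of the fetal-like, regenerating state Clu, the marker of revival cells, had 25.4, 23.0, 61.5 and 17.9 CPM in stem cells, against 1.77, 2.12, 9.06 and 2.40 CPM in progenitors and rose by 3.06 ± 0.52, while S100a6, a calcium-binding protein, had 1.16, 0.317, 0.797 and 1.06 CPM in stem cells, against 12.1, 19.8, 11.5 and 11.2 CPM in progenitors and Anxa2, an annexin, was lower at -2.13 ± 0.20. Ccn1 (0.74 ± 0.24), a matrix protein, rose. Cnn2 (-0.75 ± 0.29), a calponin, fell, but not with the replicate block (adjusted p = 0.0621), and Ly6a (-1.66 ± 0.70), a surface protein, passed only with it (adjusted p = 0.00773).

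Outside the lists, the genes with the largest rises among well expressed genes whose groups did not overlap began with Gm830, with 212, 204, 344 and 238 CPM in stem cells, against 6.92, 8.47, 50.7 and 15.6 CPM in progenitors, at 3.62 ± 0.47. Ccdc3, a secreted coiled-coil protein, rose by 3.21 ± 0.36, Pik3ap1, an adaptor of PI3 kinase, by 3.09 ± 0.37, Gramd1a, a sterol transfer protein, by 2.49 ± 0.32 and Jun, a subunit of AP-1, by 2.36 ± 0.29. Sgk1, a kinase induced by corticosteroids, had 336, 485, 396 and 471 CPM in stem cells, against 60.9, 84.0, 88.5 and 90.8 CPM in progenitors. Sema3c, a secreted semaphorin, Vav3, an exchange factor of small GTPases, Utrn, the dystrophin relative utrophin, and Pgc, a pepsinogen, were among the rest, at 2.0 ± 0.28, 2.13 ± 0.26, 1.99 ± 0.25 and 2.38 ± 0.28. Of the 20 largest rises by this rule 19 were highest, among progenitors, in library c.

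Among the largest falls beyond the genes above were Rep15, a Rab-binding protein, with 2.13, 1.74, 1.59 and 1.24 CPM in stem cells, against 109, 179.7, 107 and 97.0 CPM in progenitors, Scin, an actin-severing protein, at -5.61 ± 0.35, Ccl6, a chemokine, at -5.18 ± 0.42, Papss2, which makes the donor for sulphation, at -4.89 ± 0.80, St3gal4, a sialyltransferase, at -4.72 ± 0.42, and Reg1, a lectin, at -4.52 ± 0.83. By length-scaled level the most abundant stem cell transcript was Olfm4, at 11327 ± 1246 TPM in stem cells and 2357 ± 1307 TPM in progenitors (SD, n = 4 each). In progenitors it was Defa24, at 1031 ± 945 TPM in stem cells and 11574 ± 5196 TPM in progenitors. Oat, ornithine aminotransferase, was abundant in both and higher in stem cells at 0.34 ± 0.11.

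**Figure D3:**
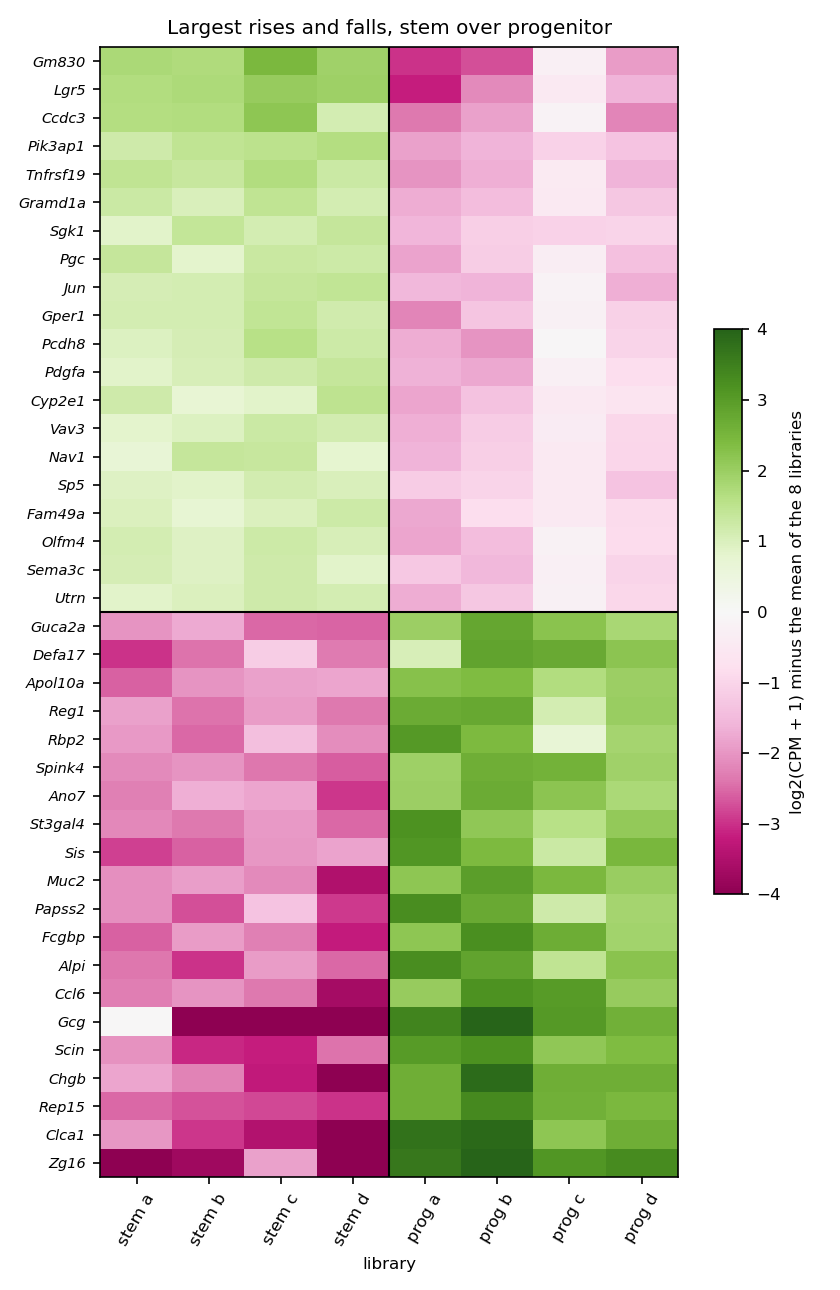
Log2 of CPM plus 1 minus the gene's mean over the 8 libraries, for the 20 largest rises (above) and 20 largest falls (below) among called genes with a mean log2 CPM of at least 4 and groups that do not overlap; stem cell libraries stand left of progenitor libraries and colours end at 4 in both directions. Progenitor library c is the highest of its group for 19 of the 20 rises, and Gcg is pale in stem cell library a.

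The same contrast in wild-type mice on the control diet gave 5414 called genes (41.4%). The 2 contrasts share no library. Across the 13088 genes their log2 fold changes had a Pearson correlation of 0.853 and a Spearman correlation of 0.855, a description over genes that are not independent. Of the genes called in Cpt1a-deficient mice 85.7% were also called in the same direction in wild type, which was 76.1% of the wild-type calls, and 1 was called in the opposite direction. That gene, Gm14303, with 12.6, 10.6, 12.1 and 8.85 CPM in stem cells, against 18.6, 22.9, 9.23 and 22.2 CPM in progenitors, was lower in stem cells of Cpt1a-deficient mice and higher in those of wild type, at -0.72 and 0.72. Its libraries overlapped, and with the replicate block it did not pass in Cpt1a-deficient mice (adjusted p = 0.0815). The medians of the lists stood as follows: stem cell markers 1.58 in Cpt1a-deficient and 1.76 in wild-type mice, goblet cell genes -4.30 and -4.51, enterocyte genes -1.40 and -1.41, sterol genes -0.79 and -1.01, glycolysis -0.60 and -0.71, and beta-oxidation -0.12 and -0.19.

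**Figure D4:**
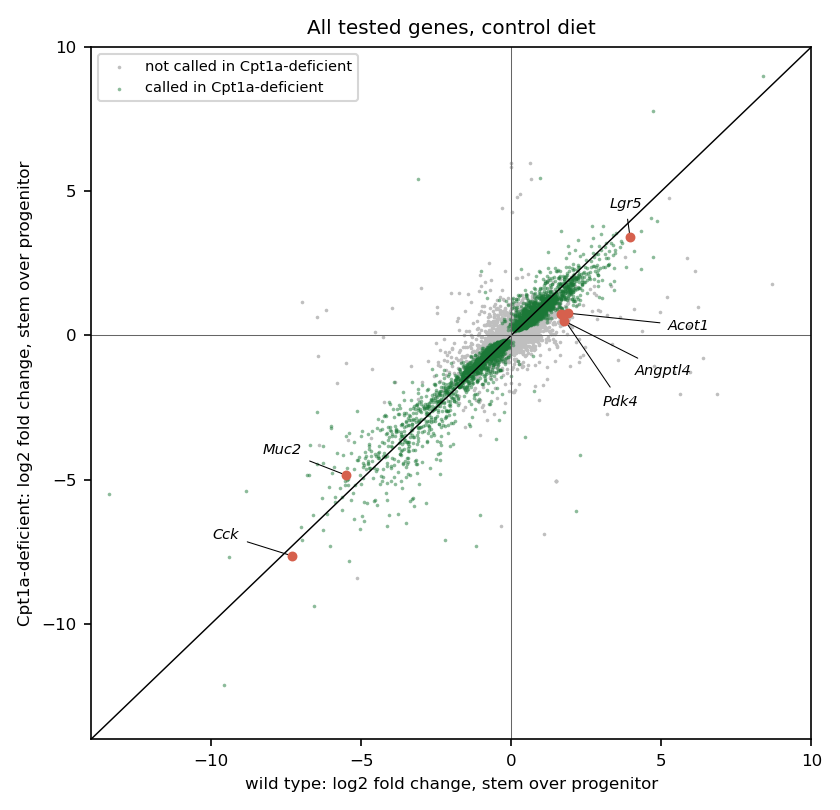
Log2 fold change, stem cells over progenitors, of all 13088 tested genes in Cpt1a-deficient mice (vertical) against wild-type mice (horizontal), both on the control diet, with genes called in Cpt1a-deficient mice in green and the line of equal change. Angptl4, Acot1 and Pdk4 lie to the right of the line and Lgr5, Muc2 and Cck near it.

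The difference between the genotypes was tested gene by gene. Without pairing, 0 genes passed (0.0%) in edgeR, 263 had an unadjusted p under 0.05 (2.01% of genes), and DESeq2 called 2, Gm2436 and Gm10031, both with the lower change in Cpt1a-deficient mice. In the progenitors of these mice Gm2436 had 9.13 CPM in library a and 0 CPM in the other libraries. With the replicate block 3 genes passed (0.0229%), and they are named here after their values were seen. All 3 stand on the list of PPAR receptors and targets, of which 26 were tested. That list was chosen with earlier results of these data known, so the shared membership is no finding. For Angptl4 stem cells exceeded progenitors by 0.44, 0.47, 0.47 and 0.57 log2 units in the 4 pairs of Cpt1a-deficient mice, against 1.88, 1.12, 1.67 and 1.54 in those of wild type. Acot1 gave 0.75, 0.87, 0.39 and 1.0 in Cpt1a-deficient pairs, against 2.05, 1.5, 1.88 and 1.68 in wild-type pairs. Pdk4 gave 0.64, 0.77, 0.74 and 0.73 in Cpt1a-deficient pairs, against 1.44, 1.13, 1.49 and 1.87 in wild-type pairs. These differences are of log2 of CPM plus 1. The pairs of the 2 genotypes did not overlap for any of the 3 genes. The genes were picked by a test on these same pairs, so the lack of overlap is no further support.

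With the block the change in Cpt1a-deficient mice minus that in wild type was -1.19 ± 0.14 for Angptl4 (adjusted p = 0.000489), -1.11 ± 0.15 for Acot1 (adjusted p = 0.00233) and -0.92 ± 0.15 for Pdk4 (adjusted p = 0.0217). The levels themselves were higher in both populations of the deficient mice. Angptl4 averaged 170.1 ± 27.0 CPM in deficient stem cells and 121 ± 16.6 CPM in deficient progenitors, against 57.6 ± 39.5 CPM and 17.3 ± 10.4 CPM in the wild-type stem cells and progenitors (SD, n = 4 each). Acot1 averaged 242 ± 42.9 CPM and 142 ± 17.4 CPM in deficient stem cells and progenitors, against 49.1 ± 15.7 CPM and 13.2 ± 2.19 CPM in wild type. Acot1 has near-identical copies beside it, so the split of reads is uncertain. When each of the 8 pairs was left out in turn, the adjusted p with the block ran from 0.000272 to 0.0165 for Angptl4, from 0.00152 to 0.0497 for Acot1 and from 0.029 to 0.134 for Pdk4, which passed in 1 of 8, the fit without wild-type pair b. In a fit of only the 16 libraries it was 0.000757, 0.0118 and 0.0892.

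**Figure D5:**
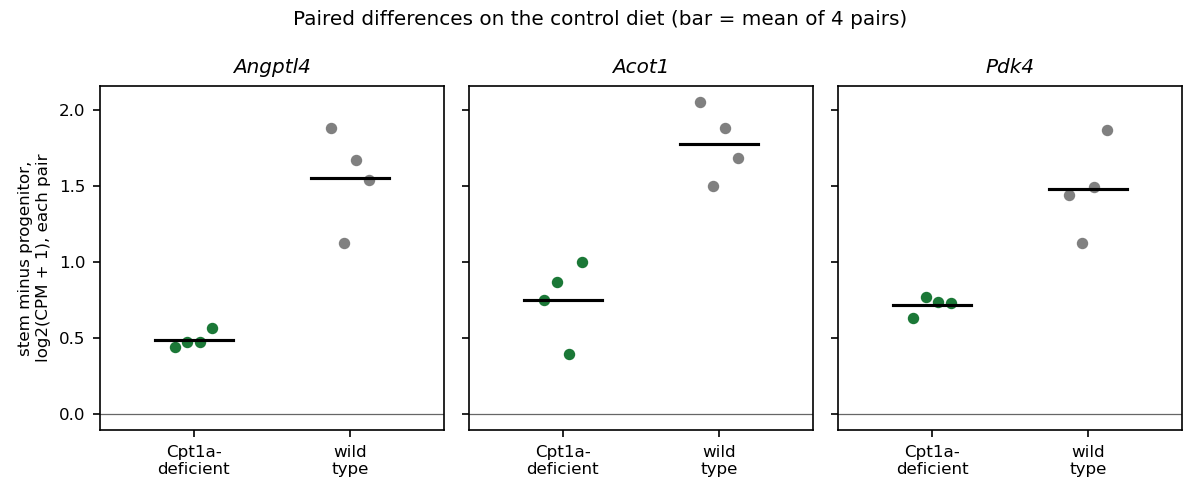
Stem cell minus progenitor difference in log2 of CPM plus 1 for each library pair (points) and its mean (bar), for Angptl4, Acot1 and Pdk4 in Cpt1a-deficient and wild-type mice on the control diet. The 4 Cpt1a-deficient pairs lie below the 4 wild-type pairs for each gene, but the genes were picked by a test on these same pairs.

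Stem cells and progenitors of Cpt1a-deficient mice on the high-fat diet gave 4107 called genes (31.4%). Again no library is shared. The log2 fold changes on the control diet and on the high-fat diet had a Pearson correlation of 0.848 and a Spearman correlation of 0.80 across genes, and 3330 genes were called in the same direction on both diets, 69.2% of the control-diet calls and 81.1% of the high-fat calls, with none opposite. Lgr5 was at 3.41 on the control diet and 3.22 on the high-fat diet, and Atoh1 at -3.14 and -2.82.

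For the difference between the diets 0 genes passed without pairing (0.0%) in edgeR, 387 had an unadjusted p under 0.05 and DESeq2 called 0. Lgr5 was among the genes whose difference did not pass, at 0.19 ± 0.53 for control diet minus high-fat diet.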

How the data were processed

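RNA of sorted intestinal stem cells and progenitors was sequenced after polyA selection and a Clontech library preparation, per the labels' protocols. The authors deposited estimated counts per gene, rounded to whole numbers, and log2 values of TPM plus 1, per the file headers and values. The submitters' processing notes name STAR 2.5.3a, RSEM 1.3.0, SAMtools 1.3 and mm10, without roles. The annotation and the strand setting are not given in the sources used here, so reads of overlapping or antisense genes cannot be told apart. Column names give the group of a library but no sample, so libraries are lettered in column order.

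Counts of 50686 genes in all 32 libraries were filtered with filterByExpr (minimum count 10), which left 13088 genes, scaled by TMM and fitted in edgeR 4.0.16 (quasi-likelihood, robust, 8 groups, R 4.3.3) with Benjamini-Hochberg adjustment at 0.05. No gene symbol is given for genes that hold 0.0677% of all counts. The CPM, fold and bound values were computed from the counts, with 3 counts over a group as the bound where it had none. DESeq2 1.42.0, limma 3.58.1 on the deposited log2 values, other scalings and filters, and each library left out were the alternatives. The edgeR and limma steps were tested on simulated data.

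Stem cell and progenitor libraries that stand beside each other were taken as pairs in a replicate block. On the control diet the correlation of their deviations from the group means was 0.61, 0.244, 0.473 and 0.395 in the 4 pairs of Cpt1a-deficient mice. In those of wild type it was 0.193 to 0.371. Libraries that were not paired gave -0.49 to 0.127 in Cpt1a-deficient mice and -0.3 to 0.0257 in wild type. The pairing thus follows the order of the columns, with these correlations as a check, and the labels do not state it. Members and lists were chosen with earlier results of these data known. Named genes are fixed genes of the design and the gates, up to 5 members per list with the smallest adjusted p (3 where none passed), the 20 largest rises and falls that do not overlap at a mean log2 CPM of at least 4, and the 10 most abundant genes per group. Other list members were named after their values were seen. Some members of the lists are not reported here by name. Promoter windows are from RefSeq, GRCm38.p6; gene positions are from GENCODE M21 on GRCm38. Values after ± on fold changes are standard errors over libraries. They were computed as the absolute log2 fold change divided by the square root of edgeR's quasi-likelihood F statistic. Depth limits low genes, and the bound of 3 counts covers counting error only.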

Additional observations from a re-analysis of the deposited data

Results flagged for a closer look

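In 29 of 479 groups of 4 libraries, for the genes named above, 1 library stood apart from the other 3 by Dixon's test, and chance flags about 1 in 20 groups. Groups in which no library reached 10 counts were left out. Stem cell library b stood above the others in Lef1 (5.38 CPM, nearest 2.91 CPM), Polr1a (48.8 CPM, nearest 40.8 CPM) and Me1 (9.02 CPM, nearest 3.98 CPM). Stem cell library a stood above the others in Gcg (20.9 CPM, nearest 0.158 CPM) and Cdkn1c (2.13 CPM, nearest 0.950 CPM). Stem cell library c stood above the others in Zg16 (31.3 CPM, nearest 7.76 CPM) and Slc2a2 (5.18 CPM, nearest 2.13 CPM). Stem cell library d stood below the others in Slc16a1 (237 CPM, nearest 279.6 CPM). Stem cell library c stood below the others in Mpc2 (77.3 CPM, nearest 106 CPM). Stem cell library d stood above the others in Znrf3 (19.3 CPM, nearest 8.55 CPM) and Foxa3 (88.0 CPM, nearest 72.7 CPM). Progenitor library a stood above the others in Gata6 (78.4 CPM, nearest 70.2 CPM) and Gm2436 (9.13 CPM, nearest 0 CPM). Progenitor library c stood above the others in Clu (9.06 CPM, nearest 2.40 CPM), Tnfrsf19 (28.6 CPM, nearest 12.2 CPM), Fstl1 (11.1 CPM, nearest 4.46 CPM), Nrarp (46.0 CPM, nearest 37.9 CPM), Nos2 (5.05 CPM, nearest 0.882 CPM), Epha4 (5.05 CPM, nearest 1.59 CPM), Ccdc3 (17.2 CPM, nearest 4.59 CPM), Jun (94.1 CPM, nearest 35.4 CPM) and Abca1 (3.83 CPM, nearest 1.06 CPM). Progenitor library b stood above the others in Cck (78.3 CPM, nearest 30.8 CPM), Chgb (847 CPM, nearest 367 CPM), S100a6 (19.8 CPM, nearest 12.1 CPM), Rep15 (179.7 CPM, nearest 109 CPM) and H2-K1 (604 CPM, nearest 511 CPM). Progenitor library c stood below the others in Rrm2 (192 CPM, nearest 350.0 CPM). Progenitor library d stood below the others in Oxct1 (95.8 CPM, nearest 101 CPM). Explanations were not tested.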

How the results depend on the processing

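The count of 4812 genes came to 3889 to 5633 under DESeq2, other size factors, no filter on low counts, a fit of only the compared libraries, the level of Xist as a covariate, both TPM scales and the replicate block, and to 3808 to 5088 with each library left out in turn. A test against a log2 fold change of 1 called 616 genes, 144 higher and 472 lower. Of 247 named genes tested 207 were called; settings other than leaving out a library took the call from 46 of them under at least 1 setting, and leaving out 1 library from 31. These are given with how many of the 8 fits lost the call and the highest edgeR adjusted p: Abca1 (4, 0.128), Acad10 (1, 0.0593), Bmi1 (6, 0.216), Bop1 (1, 0.0507), Ccn1 (3, 0.0657), Cdk4 (3, 0.0587), Cenpf (3, 0.0917), Cnn2 (4, 0.239), Cpt2 (2, 0.0764), Dgat2 (1, 0.0698), Dkc1 (2, 0.0598), Dpp4 (5, 0.102), Duoxa2 (3, 0.063), Efnb1 (2, 0.101), Etfb (3, 0.103), Fads1 (6, 0.0806), Gm14303 (6, 0.122), Hdac7 (6, 0.19), Id2 (3, 0.0868), Itgae (2, 0.173), Lyz2 (5, 0.139), Mlycd (1, 0.0684), Nos2 (5, 0.162), Notch2 (4, 0.167), Oat (2, 0.0874), Phgdh (6, 0.118), Pola1 (6, 0.113), Prox1 (3, 0.0972), Psmb9 (4, 0.088), Rbl2 (2, 0.134) and Znrf3 (3, 0.192). Genes with a log2 fold change that was not called and changed sign were, on the uncentred TPM scale Acadl (0.081), Acadm (0.28), Acadvl (0.080), Cd24a (0.26), Cdx1 (0.26), Cpt1a (0.13), Epcam (0.12), Foxa2 (0.21), Foxa3 (0.017), Gata6 (0.16), Hadha (0.16), Hdac1 (0.25), Jag1 (0.060), Mgam (0.060), Mki67 (0.15), Nrarp (0.14), Oxct1 (0.11), Slc5a1 (0.14) and mt-Nd1 (0.020); on the centred TPM scale Acadm (0.023), Cd24a (0.0055), Cdx1 (0.0035) and Pdgfrb (-0.12). Over the fits without 1 library they ranged, with a change of sign, in Cd24a (-0.073 to 0.12), Cdx1 (-0.060 to 0.053), Foxa1 (-0.25 to 0.22), Foxa2 (-0.15 to 0.088), Hadha (-0.11 to 0.019), Pdgfrb (-0.10 to 0.35), Slc5a1 (-0.28 to 0.018) and mt-Co1 (-0.045 to 0.19). The cause was not tested. The medians of 9 of 45 lists changed sign on the uncentred TPM scale, 3 on the centred scale and 0 with the replicate block. Beside the lists given above, the uncentred TPM scale called fewer genes lower among brush border and microvillus genes (2 in place of 8), intestinal identity transcription factors (4 in place of 8), cell cycle inhibitors and G1 cyclins (4 in place of 9), sterol synthesis and transport (10 in place of 17) and antioxidant and glutathione genes (5 in place of 9).

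With the replicate block 2717 genes were higher and 2916 lower, the calls gained or lost among named genes stand beside them above, and it changed no other call of a named gene. The difference from wild type, 0 genes without pairing, had 2 calls in DESeq2 and 3 with the block, which ran from 2 to 5 calls as each pair was left out (5 without wild-type pair b) and came to 2 in only the 16 libraries. For the difference from the high-fat diet the block is given here alone, since 1 of the 4 high-fat pairs had a correlation of deviations of only 0.0694: it called 1 gene, Trp53inp1, at 1.15 ± 0.18 for control minus high-fat diet (edgeR, adjusted p = 0.0299), with 0 to 3 calls as each pair was left out and 0 in only the 16 libraries. A block by the replicate numbers of the labels and a term for labelled sex were not run, because column names carry neither.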
